A study of Mus musculus with 6 samples.

Results

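The core circadian clock genes described here are 10 genes chosen by name, namely Clock, Arntl, Per1, Per2, Per3, Cry1, Cry2, Nr1d1, Nr1d2 and Bhlhe40, out of 53379 genes in the count table. All 10 were found by gene identifier, and all 10 were among the 21244 genes that passed the filter on low counts. RNA was sequenced in bulk from the cortex of newborn C57BL/6 mice at postnatal day 0, in 3 Npas3+/- libraries, which carry a single intact copy of the transcription factor gene Npas3, and 3 wild-type (WT) libraries. The labels do not give the nature of the Npas3 allele, the sex or number of the animals behind a library, or the hour at which the tissue was taken. The last is relevant to genes of this kind, and its part in any value below was not tested.

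The mammalian clock is a transcriptional feedback loop. CLOCK and its partner ARNTL (also called BMAL1), both of the same bHLH-PAS protein class as NPAS3, bind E-box sequences and drive the Per and Cry genes, whose proteins return to the nucleus and inhibit that pair. In an interlocked loop the same activators drive Nr1d1 and Nr1d2, which encode the nuclear receptors REV-ERB-alpha and REV-ERB-beta, and these repress Arntl in opposition to the ROR receptors. Bhlhe40 (also called DEC1) encodes a further E-box repressor. In adult tissue these transcripts cycle over the day, with Arntl out of phase with the Per and Nr1d1 transcripts, whereas in the fetal and newborn brain rhythms are reported to be weak or still developing.

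The libraries held 67378231 to 87811574 counts each. Levels are in CPM, read counts scaled to the TMM-corrected library size, and tests are edgeR's quasi-likelihood test with Benjamini-Hochberg adjustment over all 21244 genes. Npas3 itself stood at 15.0, 14.1 and 8.61 CPM in Npas3+/- replicates 1 to 3, against 23.4, 28.4 and 25.7 CPM in WT replicates 1 to 3, a log2 fold change of -1.04 (SE 0.20, adjusted p = 0.27). Only Npas3+/- replicate 2 expressed Xist strongly (3667 CPM, against 2.02 CPM or less in the other libraries). Xist marks female tissue, so sex was not balanced between the genotypes, and its part in the values below was not tested. Whether each replicate is another animal is not stated, and a p-value here reflects only how far the 6 samples scatter, which may be technical.

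None of the 10 clock genes passed the threshold of 0.05 (adjusted p = 0.373 to 0.972), with a background of 0.0377% of all genes called. DESeq2, which called 3.03% of the genes to which it gave an adjusted p, also called 0 of the 10. Log2 fold changes of Npas3+/- over WT ran from -0.09 for Nr1d2 to 0.33 for Bhlhe40, with SEs of 0.07 to 0.18. Of the 10 genes, 8 had positive values, where 48.2% of all genes tested did, and the median was 0.16 beside -0.0095 for all genes. With the score of 10 astrocyte markers as a covariate 6 of the 10 values were positive, with a median of 0.02 beside 0.0081 for all genes. That score was itself lower in every Npas3+/- library than in every WT library. The 95% intervals of the 10 genes reached no lower than 0.754-fold (Nr1d2) and no higher than 1.55-fold (Bhlhe40). Unadjusted p-values under 0.05 were found for 2 of the 10, Bhlhe40 and Nr1d1, against 12.1% of all genes. The genotypes did not overlap for 2 of the 10, Per1 and Nr1d1, both higher in Npas3+/- cortex, against 18.9% of all genes in either direction and 9.7% in that direction.

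**Figure D1:**
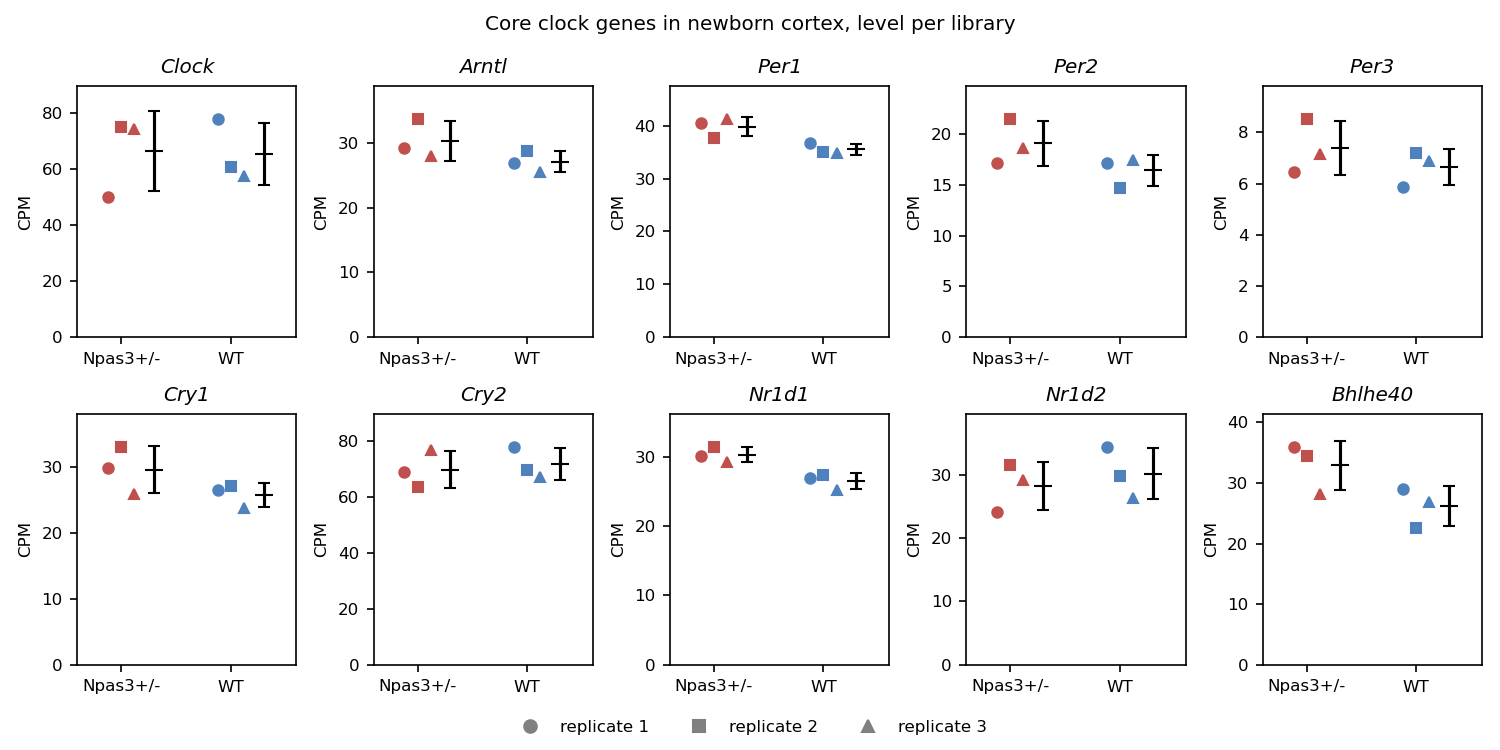
Level of each of the 10 clock genes in each library, in CPM on axes that start at 0, with Npas3+/- libraries in red and WT libraries in blue, symbols for the replicate number, and black bars for the mean and SD (n = 3). The 3 Npas3+/- points lie above the 3 WT points for Per1 and Nr1d1, and the groups overlap for the other 8 genes.

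Summed levels of the glial and thalamic markers differed between the genotypes without overlap, while those of striatal and interneuron markers overlapped. All 10 astrocyte markers examined had negative fold changes, of which 1 passed the test (Slc4a4), and their summed level was 592 to 754 CPM in Npas3+/- libraries against 820 to 910 CPM in WT. Radial glia markers had negative estimates for 9 of 10 genes, none of which passed (1134 to 1339 CPM summed in Npas3+/-, against 1478 to 1622 CPM in WT). Thalamus markers summed to 85.7 to 89.4 CPM in Npas3+/- and 97.8 to 111 CPM in WT, with 3 of 5 estimates negative and none passing. Most of this sum came from Slc17a6 (means of 48.3 CPM in Npas3+/- and 56.2 CPM in WT) and Prkcd (27.0 and 33.1 CPM). Tcf7l2 (log2 fold change 0.0043) and Lef1 (0.19) were not lower in Npas3+/-, and Gbx2 was too low to be tested. Estimates were negative for 14 of 15 striatal markers and 9 of 10 interneuron markers, none passing, with sums of 372 to 458 CPM in Npas3+/- against 375 to 624 CPM in WT for the striatal list and 484 to 614 CPM in Npas3+/- against 586 to 725 CPM in WT for the interneuron list. The striatal score, the mean deviation of its markers in log2 CPM from their means over all libraries, did not follow genotype throughout, at 0.519 in Npas3+/- replicate 3 and -0.496 in WT replicate 3. No astrocyte, radial glia or striatal marker was at 0 in all libraries. In bulk tissue fewer cells of a type and less RNA per cell cannot be told apart, and the part of this difference in the clock gene values was not tested, beyond the fits with the astrocyte or striatal score as a covariate. Of 7 genes listed for the suprachiasmatic nucleus, the central pacemaker, Avp, Six6 and Nms had 0 counts in every library. Vip stood at 1.64 CPM or less, Lhx1 at 1.51 CPM or less and Prok2 at 0.464 CPM or less, and Rora, which the cortex also expresses, made up most of the sum of 13.3 to 19.3 CPM in Npas3+/- and 18.6 to 22.0 CPM in WT. Markers of cortical projection neurons were present in all libraries (2535 to 3372 CPM summed in Npas3+/- and 2505 to 2743 CPM in WT).

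Coordinates are those of mm10. Of the activators, Clock (ENSMUSG00000029238, chromosome 5, 76209868 to 76304792, minus strand) encodes a bHLH-PAS protein that also acetylates histones. It stood at 50.004, 74.9 and 74.3 CPM in Npas3+/- replicates 1 to 3, against 77.9, 60.5 and 57.6 CPM in WT replicates 1 to 3. The groups overlapped throughout, the lowest value being in Npas3+/- replicate 1 and the highest in WT replicate 1. The mean was 66.4 ± 14.2 CPM in Npas3+/- and 65.3 ± 10.98 CPM in WT (SD, n = 3), with a log2 fold change of 0.02 (95% interval -0.39 to 0.44, adjusted p = 0.972). Arntl (ENSMUSG00000055116, chromosome 7, 113207465 to 113314126, plus strand), whose product is the other activator, was at 29.3, 33.8 and 27.9 CPM in Npas3+/- and 27.0, 28.8 and 25.6 CPM in WT. Npas3+/- replicate 2 was highest and WT replicate 3 lowest, and the groups overlapped because WT replicate 2 exceeded Npas3+/- replicate 3. The log2 fold change was 0.16 (SE 0.10, adjusted p = 0.569).

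The Period genes encode PAS-domain proteins that carry the inhibitory limb. Per1 (ENSMUSG00000020893, chromosome 11, 69095217 to 69109960, plus strand), which is also induced by light in the central pacemaker, stood at 40.4, 37.7 and 41.3 CPM in Npas3+/- libraries and 36.8, 35.0 and 34.9 CPM in WT. Every Npas3+/- library lay above every WT library, the closest values being those of Npas3+/- replicate 2 and WT replicate 1. The log2 fold change was 0.16 (SE 0.07, 95% interval -0.0030 to 0.33, adjusted p = 0.42). With the score of the astrocyte markers as a covariate it was 0.26 (SE 0.14). Per2 (ENSMUSG00000055866, chromosome 1, 91415982 to 91459324, minus strand) was at 17.2, 21.5 and 18.6 CPM in Npas3+/- and 17.1, 14.7 and 17.5 CPM in WT. Its groups overlapped between Npas3+/- replicate 1 and WT replicate 3, and the outlying values were Npas3+/- replicate 2 above and WT replicate 2 below, with a log2 fold change of 0.22 (SE 0.12, adjusted p = 0.525). Per3 (ENSMUSG00000028957, chromosome 4, 151003652 to 151044665, minus strand), which is dispensable for rhythms in mice, was the least abundant of the 10 at 6.45, 8.53 and 7.15 CPM in Npas3+/- and 5.87, 7.20 and 6.87 CPM in WT. Its groups overlapped, with a log2 fold change of 0.15 (SE 0.16, adjusted p = 0.759).

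The cryptochromes are the main inhibitors of the CLOCK and ARNTL pair. Cry1 (ENSMUSG00000020038, chromosome 10, 85131700 to 85185064, minus strand) was at 29.9, 33.2 and 25.9 CPM in Npas3+/- and 26.5, 27.2 and 23.8 CPM in WT. Npas3+/- replicates 1 and 2 exceeded all WT values, and Npas3+/- replicate 3 did not (log2 fold change 0.20, SE 0.11, adjusted p = 0.525). Cry2 (ENSMUSG00000068742, chromosome 2, 92403646 to 92434043, minus strand) was at 69.2, 63.5 and 76.9 CPM in Npas3+/- and 78.2, 69.9 and 67.4 CPM in WT. Here Npas3+/- replicate 2 was the lowest library, the opposite of its place for Cry1, and the log2 fold change was -0.04 (95% interval -0.25 to 0.17, adjusted p = 0.909). The log2 ratio of Cry1 to Cry2 within a library was -1.24 ± 0.32 in Npas3+/- and -1.47 ± 0.10 in WT (SD, n = 3), a difference of 0.23 that was within the Npas3+/- spread (two-sided exact permutation p = 0.4).

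Of the REV-ERB genes, Nr1d1 (ENSMUSG00000020889, chromosome 11, 98767932 to 98775333, minus strand) stood at 30.1, 31.5 and 29.3 CPM in Npas3+/- libraries and 27.0, 27.4 and 25.2 CPM in WT. All Npas3+/- values lay above all WT values, with means of 30.3 ± 1.10 CPM in Npas3+/- and 26.5 ± 1.14 CPM in WT (SD, n = 3). The log2 fold change was 0.19 (SE 0.08, 95% interval 0.01 to 0.37), with an unadjusted p of 0.0393 and an adjusted p of 0.383. Nr1d1 shares 263 bases of exon, 8.5% of its exonic length, with the thyroid hormone receptor gene Thra on the opposite strand. Thra was far more abundant, at 1343, 1247 and 1269 CPM in Npas3+/- and 1170, 1180 and 1252 CPM in WT (log2 fold change 0.10, SE 0.05), and the counting is not stated to use strand, so its share in the Nr1d1 counts was not tested. Nr1d2 (ENSMUSG00000021775, chromosome 14, 18204054 to 18239127, minus strand) was at 24.2, 31.6 and 29.1 CPM in Npas3+/- and 34.4, 29.8 and 26.3 CPM in WT. The groups overlapped with the extremes in replicate 1 of each genotype, as for Clock, and the log2 fold change was -0.09 (95% interval -0.41 to 0.22, adjusted p = 0.832). Another annotated gene, AC170187.1, shares 5.13% of the 50-base windows in Nr1d2 transcripts, so a small part of the Nr1d2 reads may not be assigned with certainty. That gene is not in the count table. The log2 ratio of Nr1d1 to Nr1d2 was 0.32, -0.0060 and 0.01 in Npas3+/- and -0.35, -0.12 and -0.06 in WT. The groups did not overlap, but the two-sided exact permutation p of 0.1 is the smallest that 3 against 3 libraries can give, and over the 7 ratios computed it became 0.7 after adjustment.

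Bhlhe40 (ENSMUSG00000030103, chromosome 6, 108660629 to 108666925, plus strand) had the largest estimate among the 10. It stood at 36.0, 34.4 and 28.2 CPM in Npas3+/- replicates 1 to 3, against 29.1, 22.6 and 26.8 CPM in WT replicates 1 to 3. Npas3+/- replicates 1 and 2 lay above every WT library, Npas3+/- replicate 3 lay below WT replicate 1, and WT replicate 2 was lowest. The means were 32.9 ± 4.10 CPM in Npas3+/- and 26.2 ± 3.28 CPM in WT (SD, n = 3), with a log2 fold change of 0.33 (SE 0.13, 95% interval 0.03 to 0.63), an unadjusted p of 0.0348 and an adjusted p of 0.373. With the score of the astrocyte markers as a covariate the estimate was -0.09 (SE 0.20), and with that of the striatal markers 0.16 (SE 0.15). The antisense transcript that overlaps 2.5% of its exons stood at 0.278 CPM or less.

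Over all genes the fold changes rose with the GC content of the transcripts. With all genes split into 5 equal bins by GC content, the median log2 fold change was -0.09 in the bin of lowest GC and 0.08 in the bin of highest GC. Per1 (58.9% GC) and Nr1d1 (56.6%) belong to the highest bin, and Clock (41.5%) to the lowest. With the GC trend of each library removed, the log2 fold change was 0.08 for Per1 (SE 0.07, beside 0.16) and 0.13 for Nr1d1 (SE 0.08, beside 0.19). It was 0.10 for Clock (SE 0.18, beside 0.02), 0.34 for Bhlhe40 (49.0% GC, beside 0.33) and 0.20 for Cry1, as without the correction. The median of the 10 genes was 0.13, beside 0.16. The part of base composition in these values was not tested.

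**Figure D2:**
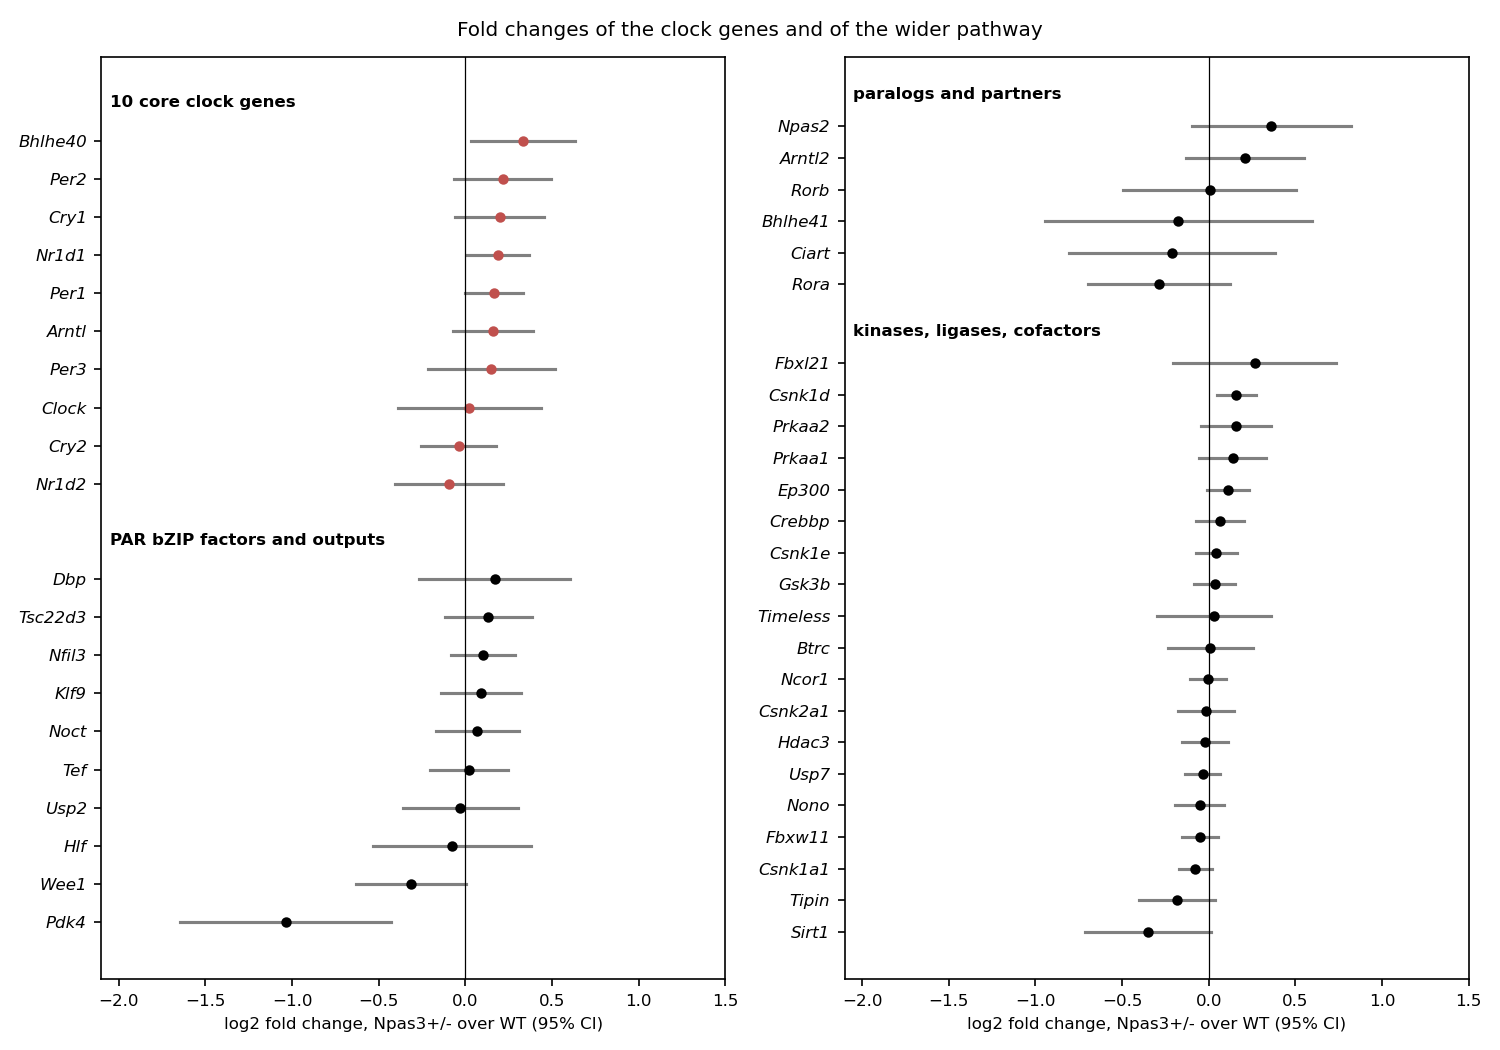
Log2 fold change of Npas3+/- over WT with its 95% interval for the 10 clock genes (red) and for 3 further lists of the pathway (black). The intervals of Bhlhe40 and Nr1d1 lie just above 0 and those of the other 8 clock genes include 0, and Pdk4 has the lowest value shown.

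Levels differed far more between the 10 genes than between genotypes. Scaled to the length of annotated exons, the WT levels were 11.4 ± 0.893 CPM per kb for Cry2, 8.62 ± 0.369 for Nr1d1, 7.74 ± 0.543 for Cry1, 6.31 ± 0.193 for Per1, 5.58 ± 0.752 for Nr1d2, 5.56 ± 0.697 for Bhlhe40, 4.76 ± 0.800 for Clock, 3.61 ± 0.217 for Arntl, 2.81 ± 0.257 for Per2 and 0.692 ± 0.0725 for Per3 (SD, n = 3). In this order Per1, Nr1d2, Bhlhe40 and Clock each overlapped the next gene named among them, and the other neighbours did not overlap. The Npas3+/- order was the same except that Bhlhe40, at 6.99 ± 0.872 CPM per kb, stood before Nr1d2, at 5.23 ± 0.699. There Cry2, Nr1d1 and Cry1 overlapped in turn, as did Per1 and Bhlhe40, Nr1d2 and Clock, and Clock and Arntl. Exon length counts every annotated exon (13727 bases for Clock), and which of these exons the libraries use was not measured.

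**Figure D3:**
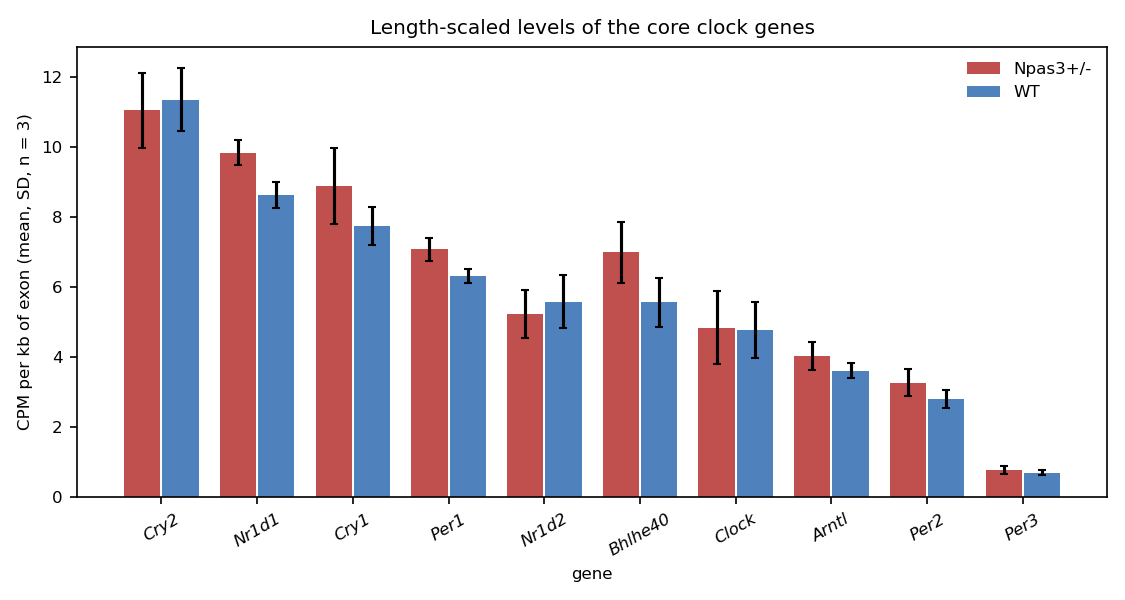
Mean level of each clock gene in CPM per kb of annotated exon, with SD bars (n = 3), Npas3+/- in red to the left of WT in blue, genes ordered by the WT mean. Cry2 is highest and Per3 lowest in both genotypes, and the genotype bars of each gene lie close together beside the differences between genes.

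The 300-base windows around the annotated starts (250 bases before to 50 after) show which clock motifs lie beside the genes whose levels are set side by side here. They are RefSeq windows on GRCm38.p6, which were available for 8 of the 10 genes and gave 12 windows. The motifs searched on both strands were the E-box CACGTG, bound by CLOCK and ARNTL, its variant CACGTT, the D-box TTATGTAA of PAR bZIP factors, the half-site TAGGTCA of ROR and REV-ERB receptors, and the cAMP response element TGACGTCA. Among all 32851 such windows they occur in 7.15%, 4.68%, 0.94%, 2.61% and 1.79%. Of 5 windows printed, those of Arntl, Cry1 and Nr1d1 are shown for their correlation across libraries, which did not pass after adjustment. That of Per1 is shown because its groups were apart, and that of Per3 for its pair of D-boxes. Whether the motifs bear on these levels was not tested. Capitals mark the matches, and each line gives the strand of the gene.
Arntl, chr7:113207261-113207560, plus strand: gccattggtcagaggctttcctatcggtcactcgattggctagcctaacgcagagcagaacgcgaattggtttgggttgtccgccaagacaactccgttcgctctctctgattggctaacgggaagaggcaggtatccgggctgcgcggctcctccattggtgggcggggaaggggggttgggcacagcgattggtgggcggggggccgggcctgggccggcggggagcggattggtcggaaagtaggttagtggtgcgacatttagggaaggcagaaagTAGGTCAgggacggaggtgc
Cry1, chr10:85185005-85185304, minus strand: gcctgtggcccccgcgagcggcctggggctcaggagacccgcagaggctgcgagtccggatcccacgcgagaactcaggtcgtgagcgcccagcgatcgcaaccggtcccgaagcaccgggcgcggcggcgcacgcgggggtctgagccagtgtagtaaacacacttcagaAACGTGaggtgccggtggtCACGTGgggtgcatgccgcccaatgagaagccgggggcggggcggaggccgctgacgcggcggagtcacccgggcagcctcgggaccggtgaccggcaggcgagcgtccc
Nr1d1, chr11:98775328-98775627, minus strand: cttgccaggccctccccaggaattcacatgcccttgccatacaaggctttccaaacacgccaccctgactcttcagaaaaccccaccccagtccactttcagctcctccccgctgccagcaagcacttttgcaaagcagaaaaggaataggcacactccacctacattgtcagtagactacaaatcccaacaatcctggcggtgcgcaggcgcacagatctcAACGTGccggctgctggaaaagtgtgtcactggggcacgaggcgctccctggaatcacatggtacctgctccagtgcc
Per1, chr11:69098699-69098998, plus strand: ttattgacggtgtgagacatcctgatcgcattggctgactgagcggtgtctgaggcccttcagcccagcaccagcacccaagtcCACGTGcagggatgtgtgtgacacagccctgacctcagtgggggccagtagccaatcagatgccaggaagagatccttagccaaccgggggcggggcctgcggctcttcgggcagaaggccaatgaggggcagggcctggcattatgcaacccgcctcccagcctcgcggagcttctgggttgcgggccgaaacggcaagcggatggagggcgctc
Per3, chr4:151044616-151044915, minus strand: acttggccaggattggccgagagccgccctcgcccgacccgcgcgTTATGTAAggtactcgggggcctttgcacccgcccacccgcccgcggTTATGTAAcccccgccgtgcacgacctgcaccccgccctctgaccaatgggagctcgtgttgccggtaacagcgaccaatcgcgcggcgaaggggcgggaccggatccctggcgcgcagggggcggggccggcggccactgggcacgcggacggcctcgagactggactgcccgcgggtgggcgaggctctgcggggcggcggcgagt

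The Arntl window printed holds a ROR half-site at position 31 counted from the start, and REV-ERB receptors are known to repress this gene through such elements. The other Arntl window has none of the 5 motifs. The Cry1 window holds an E-box beginning 60 bases before the start and the variant E-box 79 bases before it. The Nr1d1 window holds the variant E-box 28 bases before the start, and the Cry2 window holds that variant 166 bases before it. The Per1 window holds an E-box 166 bases before the start, and a second annotated Per1 start has none of the 5 motifs in its window. The Per3 window holds D-boxes 205 and 158 bases before the start. None of the 5 motifs lies in the Nr1d2 window or in the 3 Clock windows, which says only that these letters are not in these windows.

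Across the 6 libraries the deviations differed from one clock gene to another. In Npas3+/- replicates 1 to 3, 5, 9 and 7 of the 10 genes lay above their mean over all libraries on the log2 CPM scale, against 3, 3 and 0 in WT replicates 1 to 3. Npas3+/- replicate 2, the library with Xist, was thus the highest on average (mean deviation 0.164) and WT replicate 3 the lowest (-0.119). Without Npas3+/- replicate 2 the median log2 fold change of the 10 genes was 0.10, beside 0.16 with all libraries. Npas3+/- replicate 3, which had the lowest Npas3 level, had a mean deviation of 0.045.

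**Figure D4:**
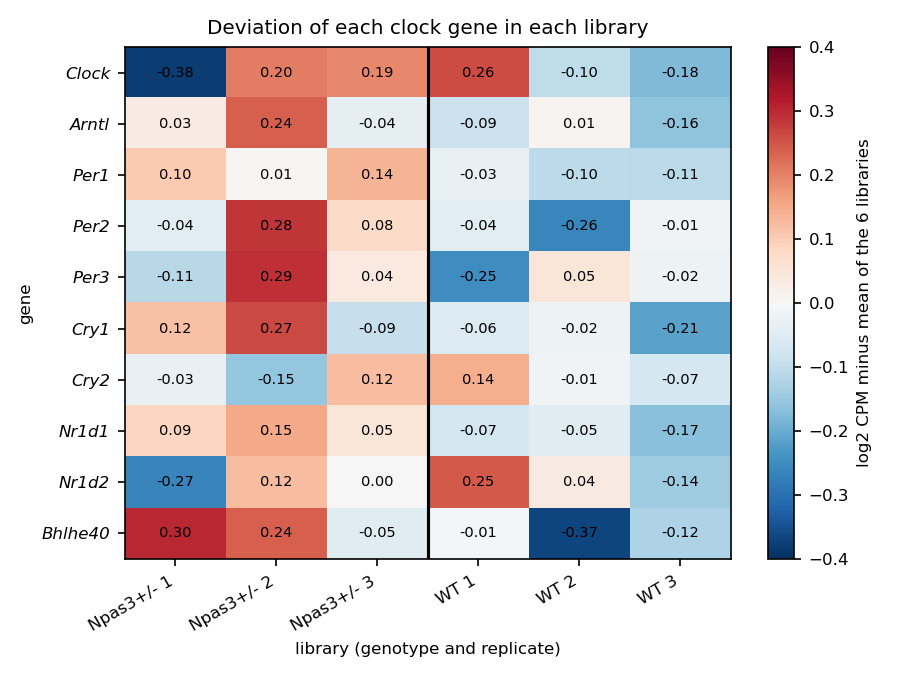
Deviation of each clock gene in each library from its mean over the 6 libraries, in log2 CPM, with Npas3+/- libraries left of the line and WT libraries right of it. Most entries of Npas3+/- replicate 2 are positive and all of WT replicate 3 are negative, and Clock and Nr1d2 share their extremes, lowest in Npas3+/- replicate 1 and highest in WT replicate 1.

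The closest pair was Arntl and Cry1 (Pearson r = 0.955, exact permutation p = 0.00417, Spearman rho = 0.943, exact permutation p = 0.0167, over 6 libraries of both genotypes). Over all 45 pairs of the 10 genes the adjusted p of this r was 0.188, and r was 0.743 without the 2 libraries farthest from the median of Arntl. Clock and Nr1d2 followed (r = 0.896, exact permutation p = 0.00972, adjusted p = 0.218, rho = 0.943, exact permutation p = 0.0167, adjusted p = 0.251), and their r was 0.549 without the 2 libraries farthest from the median of Clock. Arntl and Nr1d1, an activator gene and the gene of its repressor, had r = 0.877 (exact permutation p = 0.0181, adjusted p = 0.218) and rho = 0.943 (exact permutation p = 0.0167, adjusted p = 0.251), with r = 0.575 without the 2 farthest libraries. Of the 45 pairs, 36 had a positive r, and none passed after adjustment. The genotype means were not removed, and the share of positive pairs among other genes was not computed.

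The log2 ratio of Nr1d1 to Arntl, 2 transcripts with opposite daily phase in adult tissue, was 0.04, -0.10 and 0.07 in Npas3+/- libraries and 0.00080, -0.08 and -0.02 in WT. The means were 0.0015 ± 0.09 in Npas3+/- and -0.03 ± 0.04 in WT (SD, n = 3), a difference of 0.03 (two-sided exact permutation p = 0.6). The ratio of Per2 to Arntl averaged -0.67 ± 0.10 in Npas3+/- and -0.72 ± 0.22 in WT, and that of the output gene Dbp to Arntl -1.86 ± 0.04 in Npas3+/- and -1.89 ± 0.29 in WT. These differences were smaller than the spread among WT libraries (two-sided exact permutation p = 0.8 and 0.9).

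**Figure D5:**
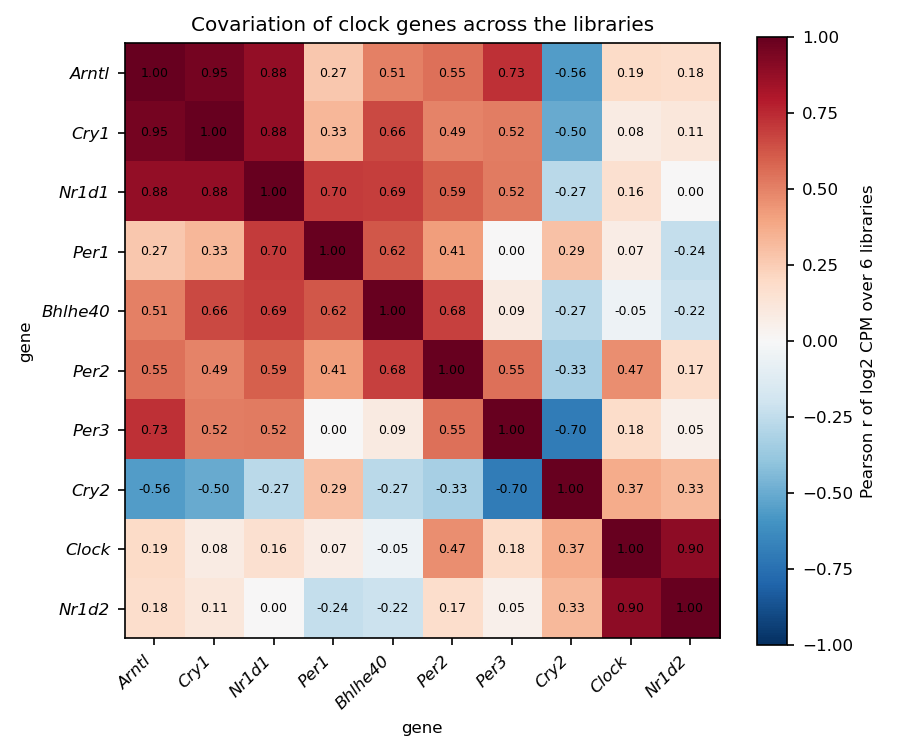
Pearson r of log2 CPM over the 6 libraries for every pair of the 10 clock genes. Arntl, Cry1 and Nr1d1 form a block with values from 0.877 to 0.955, Clock and Nr1d2 pair at 0.896, and Cry2 has negative values with most of the others.

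Genes outside the clock with the most similar pattern over the 6 libraries were taken from the 12024 genes with a mean of at least 5 CPM, as a description without a test. Nearest to Nr1d1 were the secretory granule gene Ptprn (r = 0.996), Usp31 (0.995), Cacng5 (0.990), Fkbp1b (0.989) and Rps6kc1 (0.986). Nearest to Per2 were B330016D10Rik (0.994), Hr (0.988), B3glct (0.988), Rnaseh2c (0.988) and the neurotensin receptor gene Ntsr1 (0.987). Nearest to Arntl were Abca9 (0.986), 4930447C04Rik (0.974), Slc39a6 (0.958), Mrrf (0.957) and Entr1 (0.957). None of these 15 genes passed the threshold between genotypes. So many candidates yield high values of r over 6 libraries.

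In the wider pathway 0 genes passed in any of 5 lists. Of 7 paralogs and partners, 6 were tested, 3 with positive and 3 with negative estimates and a median of -0.09. Npas2, a substitute for CLOCK in the forebrain, stood at 17.3, 29.1 and 22.7 CPM in Npas3+/- and 20.9, 17.2 and 15.7 CPM in WT. Npas3+/- replicates 2 and 3 were above all WT libraries and replicate 1 was not (log2 fold change 0.36, SE 0.20, adjusted p = 0.519, and 0.16 without Npas3+/- replicate 2). Rora, the receptor gene that activates Arntl, had -0.29 (SE 0.18, adjusted p = 0.566) and Arntl2, a paralog of Arntl, 0.21 (SE 0.15, adjusted p = 0.619).

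Among 10 PAR bZIP factors and clock outputs, 6 estimates were positive and 4 negative, with a median of 0.05. Pdk4, the pyruvate dehydrogenase kinase gene, stood at 2.01, 1.55 and 2.95 CPM in Npas3+/- and 4.21, 5.08 and 4.07 CPM in WT. The Npas3+/- libraries were all lower than the lowest WT library, with a log2 fold change of -1.04 (SE 0.26) that did not pass in edgeR (adjusted p = 0.276) and passed in DESeq2 (adjusted p = 0.0188). With the astrocyte marker score as a covariate the estimate was -0.12 (SE 0.33). The cell cycle kinase gene Wee1 also had groups apart, at 5.63, 5.97 and 6.36 CPM in Npas3+/- and 8.31, 6.78 and 7.23 CPM in WT (log2 fold change -0.31, SE 0.14, adjusted p = 0.42). Nfil3, the D-box repressor gene, was at 0.10 (SE 0.08, adjusted p = 0.662), with groups apart and higher in Npas3+/-. Of these 10 genes the groups were apart for 1 higher and 2 lower, against 18.9% of all genes in either direction.

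Among 19 kinases, ubiquitin ligases and cofactors of clock proteins, 10 estimates were positive and 9 negative, with a median of 0.0083. Csnk1d, which encodes a casein kinase that phosphorylates PER proteins, stood at 213, 208 and 199.8 CPM in Npas3+/- and 189, 183 and 185 CPM in WT. The groups were apart and the libraries of each genotype close together (log2 fold change 0.16, SE 0.05, unadjusted p = 0.0107, adjusted p = 0.289). The deacetylase gene Sirt1 was lower in all Npas3+/- libraries, at 26.0, 29.6 and 18.9 CPM against 31.9, 30.5 and 32.5 CPM in WT, and replicate 3 was the farthest (log2 fold change -0.35, SE 0.16, adjusted p = 0.427, and -0.18 without that replicate). With the astrocyte marker score as a covariate the Sirt1 estimate was -1.01 (SE 0.18, adjusted p = 0.965). The histone acetyltransferase gene Ep300 had 0.11 (SE 0.05, adjusted p = 0.437), with groups apart and higher in Npas3+/-. Of these 19 genes the groups were apart for 3 higher and 3 lower, against 18.9% of all genes in either direction.

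Per1 responds acutely to neuronal activity and to glucocorticoids, and genes known for the same responses were read beside it. Of 10 immediate early genes 4 had positive estimates, with a median of -0.05, and of 9 glucocorticoid-responsive genes 4 did, with a median of -0.03. Fosb, at 0.307, 0.130 and 0.159 CPM in Npas3+/- and 1.005, 0.381 and 0.362 CPM in WT, had a log2 fold change of -1.54 (SE 0.62, adjusted p = 0.386), which was -0.89 without WT replicate 1. Arc was at -0.33 (SE 0.27, adjusted p = 0.681) and Nr4a1 at 0.15 (SE 0.12, adjusted p = 0.681). Pdk4, given above among the outputs, is also one of the glucocorticoid-responsive genes. It had the smallest p among them and was lower in Npas3+/- (log2 fold change -1.04, SE 0.26, edgeR adjusted p = 0.276). The glucocorticoid-induced kinase gene Sgk1 stood at 51.1, 59.2 and 55.2 CPM in Npas3+/- and 51.7, 45.6 and 43.7 CPM in WT, where the groups overlapped through a single pair (log2 fold change 0.23, SE 0.09, adjusted p = 0.376). Cdkn1a was at -0.25 (SE 0.18, adjusted p = 0.629).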

How the data were processed

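Cortex RNA of 3 Npas3+/- and 3 WT samples at postnatal day 0 was measured by sequencing, and groups and replicate numbers were taken from the labels. Columns marked NP in the table were read as Npas3+/-. The authors deposited raw read counts per gene for 53379 genes. The submitters' processing notes name HISAT2 2.1.0, Trimmomatic 0.3.8, featureCounts and mm10. Annotation, strand setting and handling of multiply matching reads are not given in the sources used here. Total counts per library ran from 67378231 to 87811574.

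Identifiers were matched without version to GENCODE M21 (53274 matched, 105 not). Counts were analysed in R 4.3.3 with edgeR 4.0.16: filterByExpr on genotype (21244 genes), TMM scaling, glmQLFit and glmQLFTest with genotype alone, and Benjamini-Hochberg adjustment over all genes at 0.05. A log2 fold change sets Npas3+/- over WT, an SE is its size over the square root of F, and intervals cover 95%. The log2 CPM used for deviations, correlations and marker scores has a prior count of 2. Single ratios and correlations were tested by exact permutation in Python 3.11.15. Only the edgeR fit was tested on simulated counts, by its median log2 fold changes for genes with known fold changes.

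The members and all lists were chosen with earlier results of these data known. One gene was left out of the list of kinases, ligases and cofactors and is not reported here. All members are described, as are the 3 smallest p-values in each of 5 pathway lists and the 5 genes most correlated with Nr1d1, Per2 and Arntl. Alternatives were DESeq2 1.42.0, voom in limma 3.58.1, scaling by RLE or upper quartile, a filter of 1 CPM in 3 libraries, no filter, the replicate number as a block, removal of a lowess trend on GC content (span 0.4) with and without the block, marker scores of striatum or astrocytes as a covariate, a threshold of 0.1, and each library left out. Libraries of a genotype differed by a chi-square of at least 41.9 per gene, so none repeated another.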

Additional observations from a re-analysis of the deposited data

How the results depend on the processing

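No clock gene passed under any of the 18 alternatives run, among them DESeq2 and a threshold of 0.1. Over all genes the number called was 8, and it was 445 with DESeq2, 3 with the replicate block with or without the GC correction, 5 with the striatal score as a covariate, 2 with the astrocyte score, and 7 to 16 with a library left out, the highest without WT replicate 1. The replicate numbers did not pair the samples (correlations of same-numbered deviations of 0.037, -0.030 and -0.088, and not every library correlated best with its own number). The block changed no call of a clock gene, with Bhlhe40 at 0.33 and Nr1d1 at 0.19.

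Arntl, Per1, Per3 and Nr1d1 had positive log2 fold changes under all 17 alternative fits, although Arntl was at 0.0114 (SE 0.20) and Per3 at 0.037 (SE 0.32) with the astrocyte score, and without Npas3+/- replicate 2 Arntl was at 0.0778 and Per3 at 0.034. Signs turned for 6 clock genes, none of them called. With the astrocyte score these were Per2 (-0.0154), Cry1 (-0.0444), Bhlhe40 (-0.0917) and Cry2 (0.21), and with the striatal score Cry2 (0.0891) and Nr1d2 (0.0328). Leaving out a library gave -0.07 to 0.19 for Clock, -0.11 to 0.03 for Cry2 and -0.18 to 0.01 for Nr1d2. Clock was -0.07 and -0.06 without Npas3+/- replicates 2 and 3 and -0.03 and -0.06 without WT replicates 2 and 3. With Npas3+/- replicate 2 or WT replicate 1 left out Cry2 was at 0.0268 or 0.0273, and with replicate 1 of Npas3+/- or WT left out Nr1d2 was at 0.0097 or 0.0132. Of the other genes named, Rora (0.14), Arntl2 (-0.038), Arc (0.53) and Cdkn1a (0.32) turned with the astrocyte score, and Arc (0.0296) and Cdkn1a (0.0895) with the striatal score. DESeq2 called Pdk4 and Npas3. The causes were not tested. Of the 10 clock genes, 6 were positive with the astrocyte score (median 0.0242), 10 with the striatal score or without WT replicate 1, 9 without Npas3+/- replicate 1, and 7 without Npas3+/- replicate 3, WT replicate 2 or WT replicate 3. The spread between 3 libraries, with SEs of 0.07 to 0.18, rather than counts of 397 or more per library, sets the precision.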

Other observations

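One gene of the clock pathway outside the naming rule, which varied between libraries of the same genotype, was picked after its values were seen. It was not alone in that spread. Bhlhe41, a paralog of Bhlhe40, ran from 1.77 to 2.88 CPM in Npas3+/- and from 1.81 to 3.95 CPM in WT. Rorb, a nuclear receptor gene of upper cortical layers, stood at 34.1, 60.9 and 48.8 CPM in Npas3+/- replicates 1 to 3 and 56.9, 46.2 and 40.1 CPM in WT replicates 1 to 3, lowest in Npas3+/- replicate 1 as were Clock and Nr1d2. The log2 fold change of Npas3+/- over WT was 0.0054 (SE 0.21), which did not pass in edgeR (adjusted p = 0.994).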
